A study of Mus musculus with 4 samples.

Results

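Radial glia are the neural stem cells of the embryonic cortex. Their bodies line the ventricle and their long fibres span the wall, and they divide to renew themselves, to make neurons directly, or to make intermediate progenitors. Sox2 and Pax6, transcription factors of neural progenitors, Hes5, a repressor switched on by Notch signalling, and Slc1a3, a glutamate transporter of glia, mark them, and Notch activation by neighbouring cells keeps them from becoming neurons. The cells described here came from embryonic day 14.5 (E14.5) and carried transcripts of 1 or more of those 4 genes with few or no transcripts of mitosis. They numbered 230 of the 4727 barcodes that passed the depth and mitochondrial limits at that age, and of 7210 in the whole series.

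The series holds 4 single-cell RNA sequencing libraries of mouse cerebral cortex, each from 1 animal: E14.5 labelled wild type, E14.5 labelled knockout, P0 (day of birth) wild type and P0 knockout. The knockout is of Tsku, the gene of Tsukushi, a secreted small leucine-rich proteoglycan. No further treatment, strain, allele or Cre driver is given in the labels, and by its title the series is about the balance of neuron and glia production without Tsku. With 1 animal per group no spread between animals can be estimated, so no difference was tested and every 95% interval covers counting error only.

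The cells were chosen by a gate on raw counts. Barcodes entered with 500 or more counts and 300 or more genes, and with mitochondrial genes at no more than 10% of counts. Each then needed a sum of at least 4 for Sox2, Pax6, Hes5 and Slc1a3, and at most 1 for the mitosis genes Mki67, Top2a and Cenpf. A barcode was left out if it had any Eomes, the factor of intermediate progenitors, more than 1 count of Dlx1 plus Dlx2, factors of ventral progenitors and interneurons, or more than 2 of Olig1 plus Olig2, factors of the oligodendrocyte lineage. The gate held 32 of 620 wild-type cells, or 5.16% (exact binomial interval 3.56 to 7.21). Of 4107 cells in the other E14.5 library, labelled knockout, it held 198, or 4.82% (4.19 to 5.52). The log2 ratio of these shares was -0.10 (-0.64 to 0.49), and its sign was the opposite, at 0.20 (-0.56 to 1.05), when each cell was first thinned to 1500 counts.

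Facts of the libraries touch all that follows. Gated cells were deeper in wild type, with a median of 8195 counts against 3248 in the library labelled knockout. Tsku had 10 counts in 6 of the 32 wild-type cells and 6 counts in 6 of the 198 cells of the library labelled knockout. The gated cells held 316268 and 834419 counts in all, so the Tsku level was lower in the library labelled knockout, though not 0. What its 6 counts mean for that label was not tested. The P0 knockout cells of the remaining kind, described at the end, had 0 counts. The embryos also differed in sex: Xist, which coats the inactive X, had 0 and 358 counts in the gated cells, and Y-linked Ddx3y had 31 and 0. Sex, genotype label, embryo, depth and library cannot be told apart at E14.5, and "library labelled knockout" names a library, not a known genotype. The 2 E14.5 libraries shared 2 barcodes, none of them among the gated cells. Doublets were not removed.

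The gate did not hold one kind of cell. In both libraries some gated cells were filled with transcripts of other tissues, and 3 such kinds could be told from the rest by measures the gate did not use. Ttr-rich cells gave at least 1% of their counts to Ttr, the thyroid hormone carrier made by choroid plexus. Collagen-rich cells gave at least 0.3% to Col1a1, Col1a2 and Col3a1, fibrillar collagens of connective tissue. Neuronal-transcript-rich cells gave at least 1% to a list of 14 genes of all neurons, such as Tubb3, Stmn2 and Dcx. Cells of none of these kinds are called the remaining cells. These limits were set after the data had been seen, so the split is a description.

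In wild type the gate held 4 Ttr-rich, 5 collagen-rich, 6 neuronal-transcript-rich and 17 remaining cells. The library labelled knockout had 10, 28, 40 and 120. Remaining cells were thus 53.1% (34.7 to 70.9) and 60.6% (53.4 to 67.5) of the gate. They carried a smaller part of its counts, 41.7% and 43.4%. Ttr-rich cells were the deepest kind, with medians of 17627.5 and 9116.5 counts against 6441 and 2631.5 in the remaining cells. A sum over all gated cells is therefore mostly RNA from the other kinds.

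**Figure D1:**
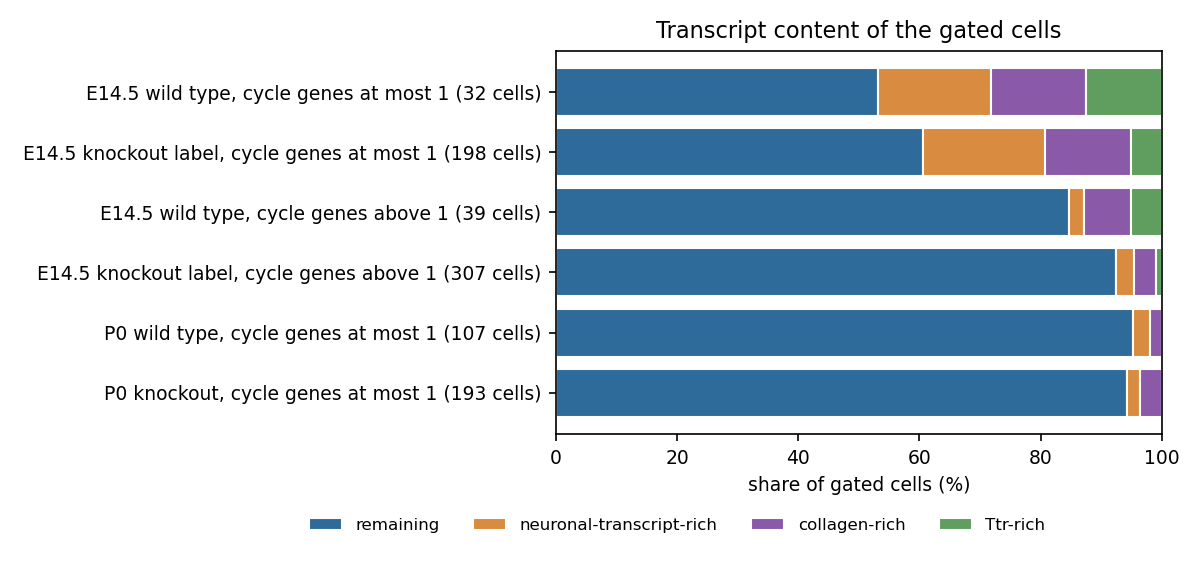
Share of gated cells (x axis, percent) that were remaining, neuronal-transcript-rich, collagen-rich or Ttr-rich, for the gate at E14.5, the same gate with more than 1 count of the mitosis genes, and the gate at P0. Remaining cells made up 53.1% and 60.6% of the E14.5 gate, 84.6% and 92.5% of its cycling counterpart, and 95.3% and 94.3% of the gate at P0.

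Ttr and the collagens split the cells cleanly. For the library labelled knockout, the highest cell below the Ttr limit had 0.171% and the lowest above it 3.71%. For the collagens these values were 0.0543% and 0.541%, and in wild type both gaps were wide as well, from 0.0410% to 4.56% for Ttr and from 0.104% to 0.902% for the collagens. The neuronal limit was less clean. There, 20 cells of the library labelled knockout lay between 0.7 and 1.5 times that limit, with 0.880% just below and 1.04% just above. In wild type 3 cells lay in that range, between 0.540% and 1.35%.

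The 4 rule genes let these kinds in by different doors. Collagen-rich cells entered on Slc1a3: it gave 59 of their 59 rule-gene counts in wild type and 164 of 170 in the library labelled knockout, and 24 of the 28 cells there had no other rule gene. Ttr-rich cells entered mainly on Sox2, which gave 29 of 32 and 39 of 54 rule-gene counts. Of the 40 neuronal-transcript-rich cells in the library labelled knockout, 32 had a single rule gene, and in 26 it was Sox2. All 6 of those cells in wild type had a single rule gene, 4 of them Sox2. Remaining cells were different in this respect: 15 of 17 and 77 of 120 had 3 or 4 of the rule genes. Hes5 was nearly all theirs, with 81 of 81 and 194 of 202 counts. Since these genes chose the cells, their levels support nothing about the cells' identity.

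**Figure D2:**
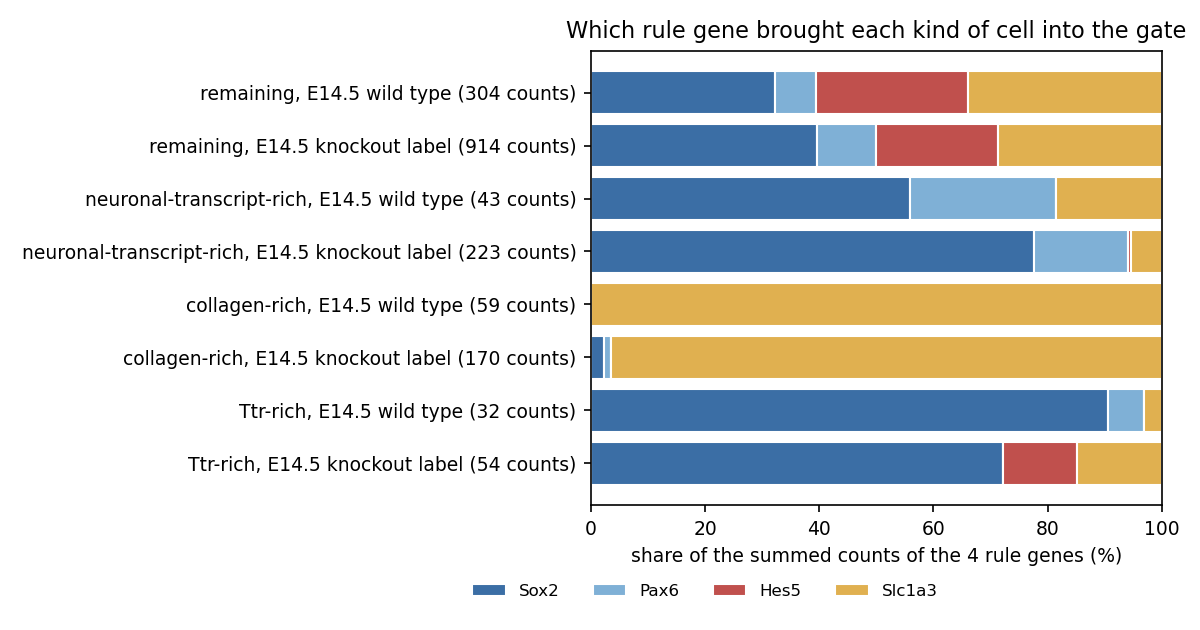
Share of the summed counts of Sox2, Pax6, Hes5 and Slc1a3 that came from each gene (x axis, percent), by kind of gated cell and E14.5 library, with the number of counts in brackets. Slc1a3 made up 100% and 96.5% of the rule-gene counts of collagen-rich cells, and only the remaining cells drew on all 4 genes in both libraries.

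Hes5 is a direct target of Notch, and its promoter is shown because it is the Notch-responsive gene among the 4 that chose the cells. RBPJ, the DNA-binding partner of the cleaved Notch receptor, is known to bind the letters GTGGGAA. The 250 bases before the start of Hes5 in the RefSeq promoter table (build GRCm38.p6, chr4:154960673-154960922, plus strand) hold 2 matches to GTGGGAA or its reverse complement TTCCCAC. They are in capitals and do not overlap, and they begin 226 and 83 bases before the start of transcription. Of 32851 mouse promoters of the same length 5.42% hold at least 1 match and 0.161% hold 2 or more. The upstream 250 bases of Sox2, Pax6 (2 start sites), Slc1a3 and Fabp7 in that table hold 0 matches. A match is only a run of letters, and these data do not measure binding.
Hes5 promoter: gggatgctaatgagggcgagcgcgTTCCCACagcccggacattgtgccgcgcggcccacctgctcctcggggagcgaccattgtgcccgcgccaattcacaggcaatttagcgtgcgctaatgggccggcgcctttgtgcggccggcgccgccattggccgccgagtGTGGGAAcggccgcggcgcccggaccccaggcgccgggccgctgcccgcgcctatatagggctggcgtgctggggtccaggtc

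Fabp7, a brain lipid-binding protein and a classical radial glia marker, is the marker gene that the gate did not use. It was found in 21 of 32 gated wild-type cells and in 106 of 198 gated cells of the library labelled knockout. Among the remaining cells it was found in 17 of 17 and 92 of 120. Their level, as the gene's share of all summed counts times 1000000 (CPM), was 4162 (3821 to 4525) in wild type and 4152 (3945 to 4367) in the library labelled knockout, and these intervals overlap. Ttr-rich cells had 11.9 and 13.7 CPM of Fabp7 and neuronal-transcript-rich cells had 36.1 and 96.3. Collagen-rich cells had 66.7 and 306 CPM. Projection neurons, taken as cells with at least 3 counts of Neurod2 plus Neurod6, had 65.7 and 95.1 CPM, in 89 of 284 and 359 of 1586 cells at median depths of 7217 and 3034.5. By the summed level of this marker the label holds for the remaining cells as a group, while the other kinds of gated cell had little Fabp7. It does not bear out each cell, since 28 of the 120 remaining cells of the library labelled knockout had 0 counts.

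The genes most raised in the whole gate over all other E14.5 cells were not those of radial glia. Of 2284 genes with at least 30 counts in the gated cells of each library, 211 (9.24%) were at least 2-fold higher in both, and the leading genes were of connective tissue. They included Itih5, with 367 CPM in gated wild-type cells against 8.13 in the others and with 211 against 16.9 in the library labelled knockout. Tbx18, a factor of pericytes and mesenchyme, had 133 against 5.48 CPM and 186 against 16.0. Col3a1 had 1066 against 33.1 CPM and 1352 against 130. Slc22a6, Dcn, Colec12, Serpinf1 and Cxcl12 were also among the 20 leading genes.

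Over the remaining cells alone the leading genes were those of radial glia. Of 798 genes with at least 30 counts in the remaining cells of each library, 77 (9.65%) were at least 2-fold higher in both than in the cells outside the gate. Tnc, the matrix protein tenascin C, had 318 CPM in the 17 wild-type cells against 34.6 elsewhere. The library labelled knockout had 326 CPM against 23.2. Aldoc, a glycolytic enzyme of the glial lineage, had 591 against 57.1 CPM and 555 against 61.4. Ttyh1, a chloride channel of progenitors and glia, had 1349 against 137 CPM and 964 against 121. Of 28 radial glia identity genes that the gate did not use, 19 passed that limit on counts. These 19 were higher in the remaining cells of both libraries, and 17 were at least 2-fold higher. Sox9, Vim, Nes, Nr2e1, Ednrb and Phgdh were among the 17. Lhx2 and Cdh2, which neurons also express, were the exceptions. The gate chose these cells, so the counts describe them and test nothing. The limit on counts also favours genes that are high in these cells, and identity genes below it were left out.

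The Ttr-rich cells had the transcripts of choroid plexus epithelium. Ttr made up 200000 CPM in wild type and 207200 in the library labelled knockout, against 83.4 and 133 in the remaining cells. Sostdc1, a secreted inhibitor of BMP and Wnt signals, had 1322 and 2293 CPM. Kcne2, a potassium channel subunit of choroid plexus, had 894 and 2265, and Folr1, the folate receptor, had 929 and 906. Otx2, the homeobox factor that specifies choroid plexus, had 1322 and 1153 CPM.

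The collagen-rich cells had transcripts of meningeal fibroblasts. Col3a1 stood at 7488 and 7497 CPM, against 0 and 5.52 in the remaining cells. Cxcl12, the chemokine that meninges secrete, had 3000 and 2483 CPM, and Col1a2 had 12200 and 7217. Foxc1, a factor needed for meninges to form, was found in 5 of 5 and 20 of 28 of these cells. Dcn, the small leucine-rich proteoglycan decorin, had 1400 and 2024 CPM. Slc1a3, their way into the gate, stood at 1311 and 1092 CPM in these cells, levels that the gate itself fixed.

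The neuronal-transcript-rich cells carried transcripts of several kinds of neuron. Tubb3, neuronal tubulin, had 2978 and 3444 CPM, against 167 and 351 in the remaining cells. Stmn2 had 1949 and 1529 CPM, and Sox11, a factor of newborn neurons, 5974 and 6169. In the library labelled knockout Tcf7l2, a factor of thalamic neurons among others, was found in 14 of these 40 cells, and Zic1 in 19. Neurod6, a factor of cortical projection neurons, was found in 14, and Gad2, an enzyme of GABA synthesis, in 16. In wild type 1, 2, 1 and 4 of the 6 cells had Tcf7l2, Zic1, Neurod6 and Gad2. Sox2 gave 24 of their 43 and 173 of their 223 rule-gene counts and Pax6 gave 11 and 37, while Hes5 gave 0 and 1.

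The same gate let in fewer such cells elsewhere. With more than 1 count of the mitosis genes it held 39 and 307 E14.5 cells, and 15.4% (5.86 to 30.5) and 7.49% (4.81 to 11.03) were outside the remaining kind. At P0 it held 107 wild-type and 193 knockout cells, with 4.67% (1.53 to 10.6) and 5.70% (2.88 to 9.97) outside. At E14.5 the values were 46.9% (29.1 to 65.3) and 39.4% (32.5 to 46.6). Each interval covers counting error within 1 animal only, and age, animal and depth differ together. When each E14.5 cell was thinned to 1500 counts before the gate was applied, 18.8% of 16 and 17.8% of 118 cells were outside, and at P0 0.746% of 134 and 0.781% of 256. The share outside the remaining kind was thus lower when the gate was applied at that common depth.

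Just inside the limit on the rule genes, 52 cells of the library labelled knockout had a sum of exactly 4, and 19 of them were remaining cells. Just outside it, 59 cells had a sum of 3, of which 26 would have been remaining cells. Fabp7 stood at 657 CPM in the first and 752 in the second. In wild type the cells with sums of 4 and 3 numbered 4 each and held 0 remaining cells. With a sum of 6 or more, 79 of 113 and 16 of 25 were remaining cells.

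The remaining cells varied widely in Fabp7. It made up between 0.00789% and 1.84% of a cell's counts in wild type, with a median of 0.321%. Its range in the library labelled knockout was from 0% to 4.15%, with a median of 0.171% and 28 of 120 cells at 0. To describe this range, cells with at least 0.2% were set against cells with under 0.06%. That gave 10 high and 5 low cells in wild type, and 57 high and 33 low cells in the library labelled knockout. Median depths of high and low cells were 5734 and 11531 counts in wild type, and 2681 and 2726 in the library labelled knockout, so depth was close to equal only in the latter. The limits were chosen with the values in view, and the genes were named after their values were seen.

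Genes higher in the Fabp7-high cells of both libraries included receptors and secreted factors. Ednrb, the endothelin receptor of glial progenitors, had 1023 CPM in high and 18.2 in low wild-type cells. The library labelled knockout had 761 and 130. Ptprz1, a receptor phosphatase and proteoglycan of radial glia, had 2121 against 255 CPM in wild type and 1798 against 309 in the library labelled knockout. Sfrp1, a secreted Wnt inhibitor, had 875 CPM against 0 counts in wild type and 916 against 190 CPM in the library labelled knockout. Pou3f2, a POU factor of cortical progenitors, Pea15a, Ddah1, Fgfbp3 and the growth factor Ptn were higher in the high cells of both libraries too. Slc1a3, a rule gene, stood at 1053 against 510 CPM and 1037 against 419.

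Genes higher in the Fabp7-low cells of both libraries included several transcription factors. Neither kind of gene was particular to its side, and their shares were not counted. The receptors Tnfrsf19 and Ntrk3 were higher in the low cells of both libraries, and the factors Pou3f2 and Nr2e1 in the high cells. Tcf4, a partner of proneural factors, had 3573 CPM in low and 1528 in high wild-type cells, and 4330 and 1838 in the library labelled knockout. Lhx2, the selector of cortical identity, had 802 against 223 CPM and 968 against 421. Emx2, a dorsal and medial homeobox factor, had 583 against 74.2 CPM and 349 against 138. Tenm4, an adhesion molecule, had 1167 against 74.2 CPM and 918 against 167. Hes1, a Notch target, had 583 against 282 CPM and 279 against 161, while Hes5 had opposite signs in the libraries: 816 in high against 383 in low cells of wild type and 467 against 649 in the library labelled knockout. Vim likewise had no common direction. Fabp7 and the 4 gate genes belong to the radial glia identity list and are left out here. Of its 17 other measured genes 11 were higher in the high cells of wild type and 13 in those of the library labelled knockout, against 370 and 327 of all 728 measured genes.

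**Figure D3:**
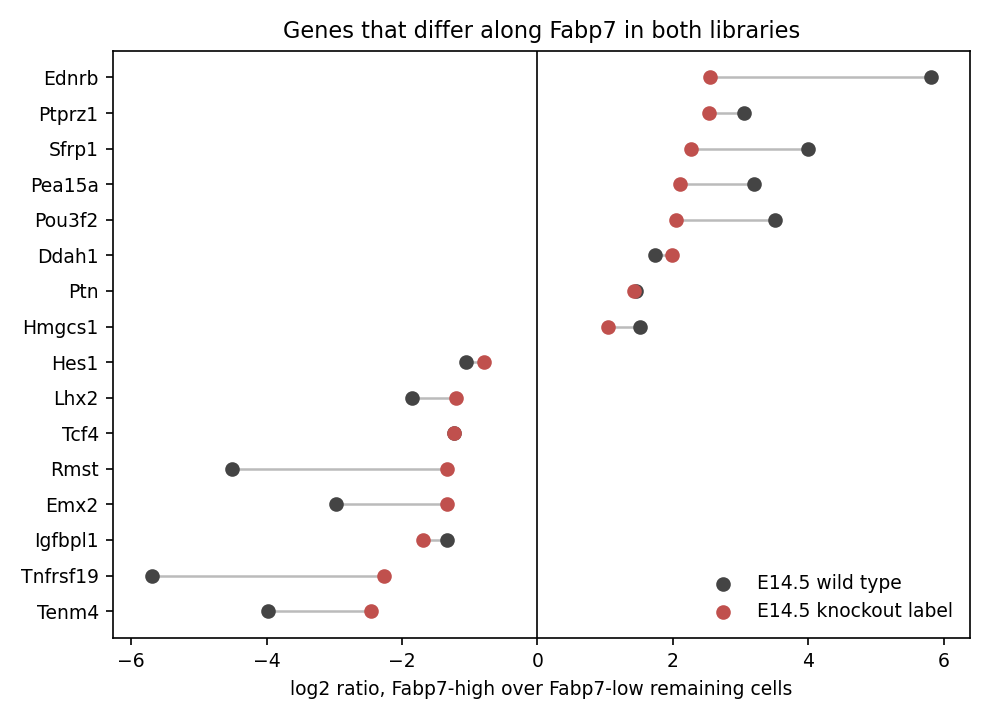
Log2 ratio of the summed level in Fabp7-high over Fabp7-low remaining cells (x axis) for 16 genes, with 1 point for E14.5 wild type (10 high and 5 low cells) and 1 for the library labelled E14.5 knockout (57 and 33 cells). The genes were chosen for lying on the same side of 0 in both libraries, so that agreement is not a result. Sfrp1 and Pou3f2 had 0 counts in wild-type low cells and are drawn against a floor of 3 counts, which sets the place of these points.

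The regional origin of the remaining cells was read from genes the gate did not use. The reading is not independent of the gate, which left out cells with more than 1 count of Dlx1 plus Dlx2, factors of ventral progenitors. Emx1, Emx2 or Neurog2, genes of the dorsal cortex, were found in 14 of 17 wild-type cells, or 82.4% (56.6 to 96.2). In the library labelled knockout they were found in 72 of 120, or 60.0% (50.7 to 68.8). At a common depth of 1500 counts the shares were 47.1% and 45.8%. Projection neurons, a different cell type of dorsal origin, had 24.6% and 29.3% at that depth. Otx2 was found in 5 of 17 and 23 of 120 remaining cells, and at the common depth in 5.88% and 12.7%, against 0.704% and 0.971% of projection neurons.

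Between the libraries some genes of the medial wall had large ratios, while the list of hem and medial wall genes had 4 of 9 above 0 and a median of -0.05. Rspo2, a Wnt agonist of the cortical hem, had 0 counts in the 17 wild-type cells and 61 in 13 of the 120 cells of the library labelled knockout. That is 169 CPM (129 to 216), and with a floor of 3 counts in place of the wild-type 0 its log2 ratio was 2.89. In wild type Rspo2 lay mainly in cycling cells, which had 132 CPM against 16.2 in the cycling cells of the library labelled knockout. The order of the libraries was thus opposite on the 2 sides of the mitosis limit. Wnt8b, a Wnt ligand of the hem and hippocampal edge, had 37.9 (12.3 to 88.5) and 130 (95.4 to 173) CPM. Sfrp2, a secreted Wnt modulator, had 15.2 (1.84 to 54.8) and 155 (117 to 201) CPM.

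The comparison of the 2 E14.5 libraries was made over summed counts. In the gated cells 7232 genes had at least 30 counts over both sums. Of these, 572 (7.91%) were at least 2-fold higher in the library labelled knockout and 257 (3.55%) at least 2-fold lower. Together these were 11.5%, and 58.5% of genes lay above 0 and 41.5% below. The median gene lay at a log2 ratio of 0.12, and differences are to be read against it. In the remaining cells 3936 genes were measured, 344 (8.74%) were at least 2-fold higher and 188 (4.78%) lower, or 13.5% together. Above 0 lay 55.9% and below it 44.1%, and the median gene lay at 0.08. Values below are for the remaining cells unless said otherwise.

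S phase genes were higher in the library labelled knockout. Of 30 measured, 26 lay above 0 and 14 past 2-fold, with a median log2 ratio of 0.91. The list summed to 4018 CPM in wild type and 7179 in the library labelled knockout, and its 4 genes with the highest levels were Nasp, Pcna, Mcm3 and Hells. Pcna, the sliding clamp of DNA polymerase, had 402 (301 to 526) and 1041 (939 to 1152) CPM, a log2 ratio of 1.37 (0.96 to 1.82). Mcm3, a subunit of the replicative helicase, had 197 (129 to 289) and 356 (298 to 423) CPM. Nasp, a histone chaperone, had 606 (481 to 755) and 840 (748 to 940) CPM, and Hells, a chromatin remodeller, 182 (117 to 271) and 279 (227 to 339). The interval of the Hells ratio, 0.62 (-0.04 to 1.32), holds 0. In remaining cells with more than 1 count of the mitosis genes the list stood at 5534 and 8114 CPM. In projection neurons it stood at 1063 and 1094 CPM. These are neurons, not progenitors, so their values cannot show whether the difference is particular to the remaining cells. Projection neurons too were limited to at most 1 count of the mitosis genes.

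The gate removes cells with mitosis transcripts but not cells in S phase, so the list was also read per cell. In wild type 4 of 17 remaining cells, or 23.5% (6.81 to 49.9), gave at least 0.5% of their counts to the list, with a median over cells of 0.205%. In the library labelled knockout it was 62 of 120, or 51.7% (42.4 to 60.9), with a median of 0.533%. Among projection neurons the shares were 0% of 284 (exact upper bound 1.29%) and 0.567% of 1586. Thinned to 1500 counts the shares were 29.4% of 17 and 51.7% of 118. With the gate applied after thinning they were 23.1% of 13 and 53.6% of 97. The intervals of these 2 shares, 5.04 to 53.8 and 43.2 to 63.8, overlap, and the wild-type share rests on few cells. Taken over both sides of the mitosis limit the shares were 36.0% (22.9 to 50.8) of 50 and 58.2% (53.2 to 63.0) of 404 remaining cells.

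**Figure D4:**
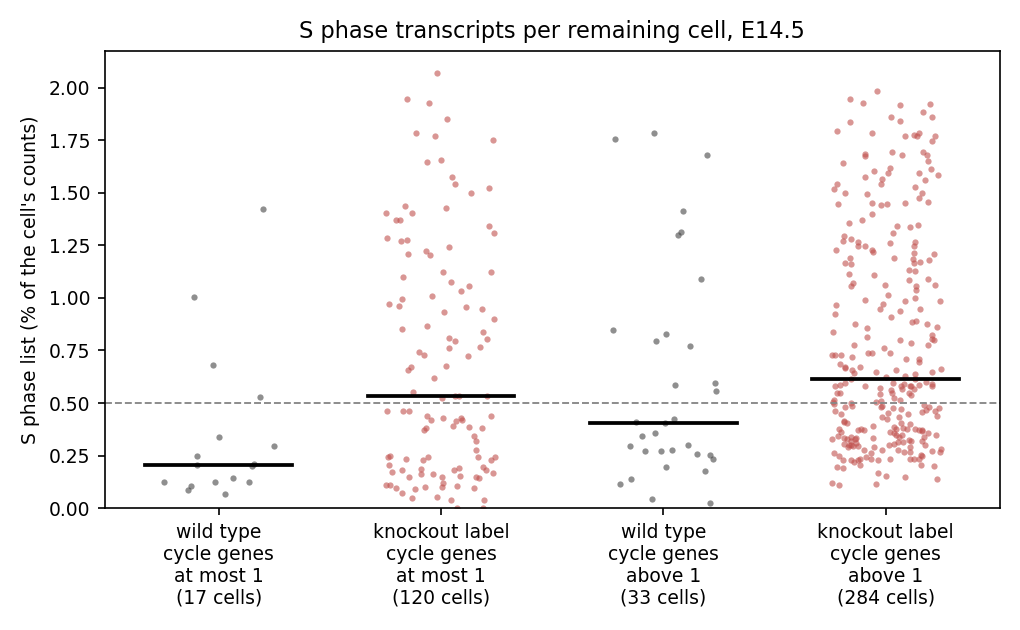
S phase transcripts as a percent of each remaining cell's counts (y axis) at E14.5, by library and by whether the cell had at most 1 or more than 1 count of Mki67, Top2a and Cenpf. Each point is a cell, bars are medians and the dashed line is 0.5%. Medians were 0.205% and 0.533% at most 1, and 0.403% and 0.612% above 1.

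Among G1 regulators the ratios of the D cyclins had opposite signs. Ccnd2, a D cyclin of radial glia and their basal processes, had 879 (727 to 1055) CPM in wild type and 1702 (1570 to 1841) in the library labelled knockout, a log2 ratio of 0.95 (0.66 to 1.25). Ccnd1 had 523 (407 to 662) and 279 (227 to 339), a ratio of -0.91 (-1.36 to -0.44). Cdkn1c, an inhibitor of cycle entry, had 205 (135 to 298) and 99.4 (69.7 to 138) CPM. It was found in 4 of 17 and 17 of 120 cells. Of the 9 measured genes of this list 7 lay above 0. In the whole gate Ccnd2 was at 0.05 (-0.14 to 0.25), so the value of that gene depends on leaving out the other kinds.

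Astrocyte genes were lower in the library labelled knockout. Of 11 measured, 11 lay below 0 and 7 past 2-fold, with a median of -1.08. In the whole gate the median was -0.63, with 10 of 12 below 0. Apoe, the lipid carrier of astrocytes, had 508 (394 to 645) CPM in wild type, in 13 of 17 cells, and 71.8 (46.9 to 105) in the library labelled knockout, in 18 of 120 cells. Its log2 ratio was -2.82 (-3.54 to -2.15). In cycling cells Apoe had 533 and 35.8 CPM, and in projection neurons it had 3.68 and 21.9, in the opposite order. Cst3, the protease inhibitor cystatin C, had 644 (515 to 797) and 304 (250 to 366) CPM. The intervals of Aldoc, at 591 (467 to 738) and 555 (481 to 638) CPM, overlap. At P0 the gate had 1932 and 3095 CPM of Apoe in its remaining cells. Apoe was also present in the other kinds of gated cell, with 572 and 975 CPM in Ttr-rich and 444 and 253 in collagen-rich cells, and over the whole gate its ratio was -0.78 (-1.09 to -0.45).

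Radial glia identity genes as a list were lower in the library labelled knockout by a small amount. Without the 4 gate genes, whose levels the selection sets in part, 26 were measured, 8 lay above 0 and 18 below, and the median was -0.10. Their sum was 21475 CPM in wild type and 17947 in the library labelled knockout, a log2 ratio of -0.26 (-0.32 to -0.19). With the remaining cells thinned to 1500 counts the median was -0.38, with 7 of 21 above 0, and with the gate applied after thinning it was -0.32, with 5 of 20 above 0. Sox9 had 834 (685 to 1005) and 914 (819 to 1018) CPM, Vim 2009 (1774 to 2266) and 1878 (1740 to 2025), and Nes, the intermediate filament nestin, 834 (685 to 1005) and 829 (738 to 928). The interval of the Fabp7 ratio holds 0. Others were lower in the library labelled knockout. Mt3, a metallothionein, had 546 (427 to 687) and 163 (124 to 210) CPM, a log2 ratio of -1.74 (-2.27 to -1.23). Dbi, an acyl-CoA binding protein, had 2630 (2361 to 2922) and 1356 (1239 to 1482), a ratio of -0.96 (-1.16 to -0.75). Id4, an inhibitor of basic helix-loop-helix factors, had 1774 (1554 to 2016) and 934 (837 to 1039). Nr2e1, the nuclear receptor that maintains neural stem cells, was higher, with 280.5 (198 to 387) and 475 (407 to 552) CPM, a ratio of 0.76 (0.24 to 1.31).

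The Notch receptors had ratios with intervals that hold 0, and Hes1 and Hes6 were lower in the library labelled knockout. Notch1 had 462 (354 to 594) and 423 (358 to 495) CPM and Notch2 174 (111 to 262) and 127 (93.03 to 170). Hes1 had 425 (321 to 551) and 202 (158 to 254) CPM, a log2 ratio of -1.07 (-1.60 to -0.55). Hes5, whose level the gate sets in part, had 614 (488 to 763) and 536 (463 to 617) CPM. Nrarp, a feedback inhibitor of Notch, had 220 (147 to 316) and 163 (124 to 210), and Hey1 had 91.0 (47.0 to 159) and 113 (81.3 to 154), both with intervals of the ratio that hold 0. Hes6, which opposes Hes1, had 159 (98.5 to 243) and 69.1 (44.7 to 102) CPM. Of 7 measured targets and modulators other than Hes5, 4 lay below 0 and 2 were past 2-fold lower, with a median of -0.43. The ligands Dll1, Dll3 and Jag1 had 2, 2 and 1 counts in wild type and 12, 2 and 5 in the library labelled knockout, too few to measure.

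Proneural and neurogenic factors were higher on balance, with 10 of 11 above 0 and a median of 0.58. Neurog2, the proneural factor of the dorsal cortex, had 136 (80.9 to 216) and 204 (161 to 257) CPM, in 4 of 17 and 32 of 120 cells, and the interval of its ratio holds 0. Sox11 had 970 (810 to 1154) and 1663 (1533 to 1801) CPM, a log2 ratio of 0.78 (0.50 to 1.06). Btg2, a marker of neurogenic divisions, had 280.5 (198 to 387) and 431 (366 to 504.1), a ratio of 0.62 (0.09 to 1.18). Neuronal transcripts were higher too at the 1% limit, but that limit caps the 14-gene list in the remaining cells. The list of 14 genes of all neurons stood at 2047 and 2983 CPM and that of projection neuron markers at 121 and 486, against 6272 and 6552 in projection neurons themselves. Neurod6 had 15.2 (1.84 to 54.8) and 99.4 (69.7 to 138) in 2 of 17 and 18 of 120 cells. At the 1% limit 4 of 5 measured genes of the 14-gene list lay above 0, with a median of 0.87. At a limit of 0.5% it was 1 of 4, with a median of -0.15. Over remaining cells gated after thinning it was 1 of 2, with a median of -0.08. The part of neuronal transcripts in the result was not tested. With the neuronal limit at 0.5% of counts in place of 1%, the median of the proneural list was 0.26.

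Of 10 gliogenic factors 5 lay above 0, with a median of 0.01. Nfia, Nfib and Nfix, the nuclear factor I genes that open the way to gliogenesis, had 849, 2001 and 970 CPM in wild type and 859, 2000 and 1017 in the library labelled knockout. All 3 ratios had intervals that hold 0.

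**Figure D5:**
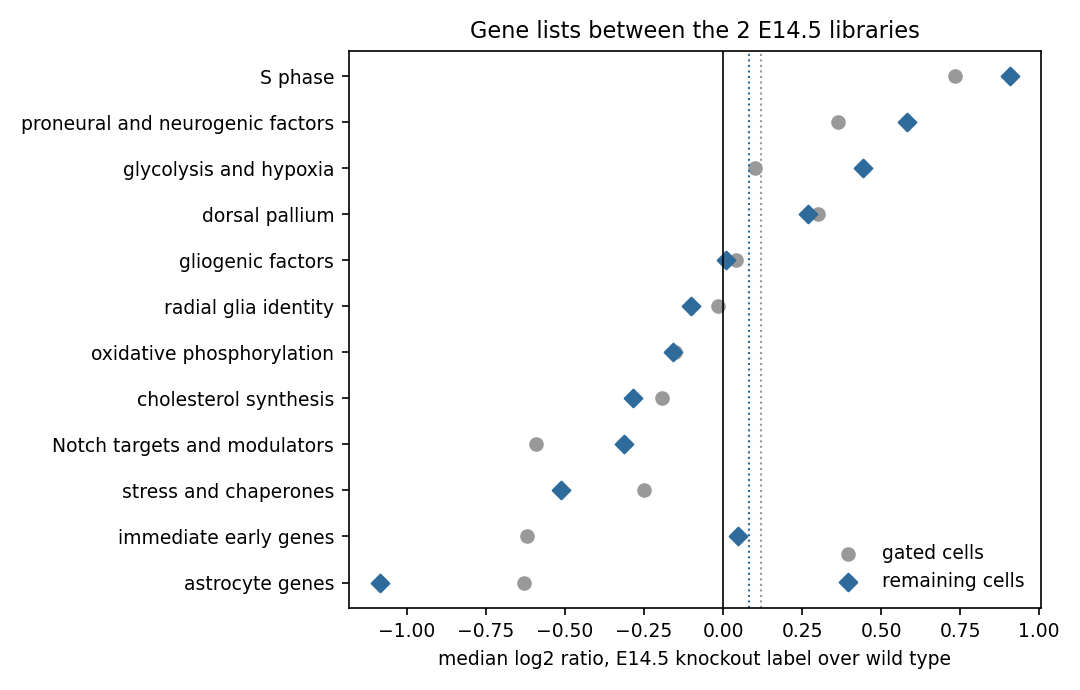
Median log2 ratio of the library labelled E14.5 knockout over wild type (x axis) for 12 gene lists, gate genes included, over all gated cells (circles) and over the remaining cells (diamonds). Dotted lines mark the median gene, at 0.12 and 0.08. Of these lists S phase lies highest at 0.73 and 0.91, astrocyte genes lowest at -0.63 and -1.08, and immediate early genes change side, from -0.62 to 0.05.

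Not every other list is given here. Of 6 measured temporal and heterochronic genes, a list of developmental timing, 4 lay above 0 and 2 past 2-fold, with a median of 0.78. The lists that follow showed smaller or mixed differences. Of 16 cholesterol synthesis genes 13 lay below 0, with a median of -0.29, and Hmgcs1, the enzyme that commits carbon to the pathway, had 1114 (942 to 1310) and 511 (440 to 590) CPM. Of 14 genes of glycolysis and hypoxia 9 lay above 0 with a median of 0.44. Pgk1 had 303 and 594 CPM and Ldha 493 and 445. Fgfr1, a fibroblast growth factor receptor, had 303 and 171 CPM, a log2 ratio of -0.82 (-1.42 to -0.21), and Fgfr3 had 174 and 235, with an interval that holds 0. Gas1, a co-receptor for hedgehog, had 220 and 467 CPM, a ratio of 1.09 (0.51 to 1.71). Immediate early genes had a median of -0.62 in the whole gate and 0.05 in the remaining cells, so their direction depended on which kinds of cell were summed.

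Several genes with the largest ratios differed in the same direction in projection neurons. Rps28, a ribosomal protein gene whose reads may be split with near-identical copies, had 1319 (1130 to 1530) CPM in wild type and 174 (134 to 223) in the library labelled knockout. In projection neurons it had 957 and 114 CPM. Rpl26 had 773 and 169, with 575 and 129 in projection neurons, while Rps14 had 1615 and 1997. Atp5me, a subunit of ATP synthase, had 364 and 35.9 CPM, and 218 and 49.2 in projection neurons. Haemoglobin transcripts, those of red blood cells, were higher in the library labelled knockout: the list stood at 75.8 and 456 CPM in the remaining cells and at 152 and 997 in projection neurons.

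Among the other genes with the largest ratios were Tcf7l1, a repressor of Wnt targets in stem cells, with 2 and 33 counts, and Zfp367, a zinc finger protein, with 1 and 37. Their log2 ratios of 2.59 (0.62 to 5.69) and 3.75 (1.19 to 9.10) rest on 2 counts and 1 count in wild type. Ptn, a secreted growth factor of radial glia, was lower, with 4200 (3857 to 4564) and 1754 (1620 to 1896) CPM, a ratio of -1.26 (-1.43 to -1.09).

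The gate at P0 gave another picture of the same marker set. It held 102 remaining cells in wild type and 182 in the knockout, or 80.3% (72.3 to 86.8) and 76.2% (70.2 to 81.4) of the remaining cells on both sides of the mitosis limit. At E14.5 these shares were 34.0% (21.2 to 48.8) and 29.7% (25.3 to 34.4). With the gate applied after thinning to 1500 counts they were 13 of 26 cells (29.9% to 70.1%) and 97 of 218 (37.8% to 51.4%) at E14.5, and 77.8% and 80.6% at P0. S phase transcripts reached 0.5% of counts in 5.88% of the 102 and 4.95% of the 182 P0 cells. Gated after thinning, it was 11.3% of 133 and 8.27% of 254. Fabp7 stood at 18620 and 16390 CPM at P0 and Ptprz1 at 6227 and 7048, both above the 2 E14.5 libraries. Neurog2 was the reverse, with 6.97 and 10.3 CPM at P0. Hopx, a marker of outer radial glia and later of glia, had 78.4 and 109 CPM at P0 against 15.2 and 44.2 at E14.5. Age, animal and library differ together here, and each age has 2 animals.

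Tsku itself had 7 counts in 4 of the 17 remaining wild-type cells, or 53.1 CPM (21.3 to 109). The library labelled knockout had 2 counts in 2 of 120 cells, or 5.52 CPM (0.669 to 19.96). In projection neurons, which are a different cell type of the same libraries, Tsku had 9.80 and 7.25 CPM. In the P0 gate the remaining cells had 6.97 CPM in wild type and 0 in the knockout.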

How the data were processed

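The authors deposited unscaled counts, 1 whole number for each of 57126 features in every barcode of the 4 libraries. Trypsin-dissociated cortex was captured with the Asteria kit at 15000 input cells per library, per the labels' protocols. From the submitters' processing notes come the names FastQC 0.12.1, R 4.3.2, Seurat 5 and the build GRCm39, with no step attached. What aligned, counted and filtered the reads, the strand setting, and whether reads were collapsed to molecules were not given in the sources used here.

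Gated cells were summed per library and scaled to a total of 1000000 (CPM). Intervals are exact (Clopper-Pearson for shares, Poisson for sums, conditional binomial for ratios) at 95%. A sum of 0 was replaced by a floor of 3 counts in a ratio. Genes needed 30 counts over both sums, and an absolute log2 ratio of 1 was the limit used. Thinning drew 1500 counts per cell without replacement. No test was made, since each group is 1 animal. The scripts (scipy 1.17.1 and pandas 2.3.3 under Python 3.11.15, numpy 2.4.6, matplotlib 3.10.9, and edgeR 4.0.16 for TMM factors only) were tested on simulated data. The gate, the 42 gene lists and the naming rule were chosen with earlier results of these data known. That rule named the gate and list genes, the 20 most enriched genes, the 15 largest ratios in each direction and the 4 most abundant genes of other lists. Genes of the 3 other kinds of cell and of the Fabp7 contrast were named after their values were seen, as were Rspo2 and its Wnt partners in the remaining cells, Tcf7l2, Zic1, Gas1, Fgfr1, Fgfr3, Ldha, Ptn and Rps14. Alternatives covered scaling, count minimum, depth, gate limits, deep barcodes and the kinds of cell left out. Doublets were not called. One measure of regional identity is not reported here. Symbols shared by several features (230) were kept apart by identifier.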

Additional observations from a re-analysis of the deposited data

How the results depend on the processing

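With 1 animal per group the spread between animals is unknown, the 17 remaining wild-type cells limit every wild-type value, and depth differs between the libraries. The interval of the log2 share ratio held 0 in each of the 6 alternatives run. Of 118 recomputed values of the share ratio and some list medians 9 changed sign: 4 of the immediate early genes, 3 of radial glia identity and 2 of the share ratio, the last 5 from main values close to 0. Counted were only the S phase, radial glia identity, proneural, astrocyte, Notch target, projection neuron and immediate early lists. Settings that left few measured genes were not counted. Other lists changed sign too. With no mitosis count allowed, cholesterol synthesis went from -0.19 to 0.16 and glycolysis and hypoxia from 0.10 to -0.087. Temporal genes went from 0.39 to -0.045 with a minimum of 10 counts. Hem and medial wall genes went from -0.41 to 0.37 with dorsal cells only. The median of the S phase list stayed above 0 and that of the astrocyte list below 0 in each alternative run. Alternatives that leave out kinds of cell, thin only the remaining cells, or gate after thinning were chosen after seeing the data.

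Genes at least 2-fold higher in the library labelled knockout numbered 572, and 1310 with a minimum of 10 counts, 1502 with no minimum, 344 without the 3 other kinds of cell, 303 with the neuronal limit also at 0.5%, 264 with the remaining cells thinned, 220 with the gate applied after thinning and 194 with both. Genes at least 2-fold lower numbered 257, and 684 with a minimum of 10 counts, 900 with no minimum, 135 with gated cells thinned, 171 with the neuronal limit at 0.5%, 80 with the remaining cells thinned, 90 with the gate after thinning and 75 with both. Stricter settings test fewer genes or cells.

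The S phase median of 0.73 was 1.07 as a mean over cells, 1.21 with no mitosis count allowed, 1.08 with the neuronal limit at 0.5%, 1.32 with remaining cells thinned, 1.16 with the gate after thinning and 1.69 with remaining cells only there. The astrocyte median of -0.63 was -1.19, -1.44, -1.18 and -1.315 under the last 4 of these. Those medians rest on 11, 3, 5 and 3 measured genes, against 12 in the main setting, so they cover different genes. Radial glia identity, at -0.02, was 0.29 with no mitosis count allowed, 0.027 without the deepest barcodes and 0.090 without cells holding neuronal markers, but -0.38 with dorsal cells only, -0.35 with remaining cells thinned, -0.26 with the gate after thinning and -0.32 with both. The share ratio, at -0.10, was 0.20 with the gate after thinning and 0.092 without the 3 other kinds. Proneural factors, at 0.36, were 0.056 with a rule sum of at least 6 and 0.86 with the gate after thinning and remaining cells only. Notch targets, at -0.59, were -0.71 under median-of-ratios scaling and -0.79 with remaining cells thinned, but -0.11 with no mitosis count allowed, -0.28 with a minimum of 10 counts or none, and -0.30 and -0.31 without cells holding neuronal markers and with dorsal cells only. Immediate early genes, at -0.62, were 0.13 with gated cells thinned, 0.31 with dorsal cells only, 0.046 in the remaining cells and 0.13 with the neuronal limit at 0.5%. Thinning left fewer genes past the count minimum. With remaining cells thinned, 13 S phase genes and 4 Notch targets were measured, against 35 and 11 in the main setting. The cause of these shifts was not tested.

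At 1500 counts per cell the share of all gated cells with a dorsal gene was 25.0% in wild type, from 16 of 32 cells at full depth, and 30.9% in the library labelled knockout, from 47.0%. Against projection neurons 352 genes were at least 2-fold higher in the gated cells of both libraries, and 211 against all other cells. The gate after thinning held 12.8% and 17.9% of P0 wild-type and knockout cells, from 10.2% and 13.4%. No paired analysis was possible because each group is 1 library.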

Other observations

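Some further genes of the remaining cells are given here. Fezf2, a factor of forebrain progenitors and of deep-layer neurons, had 4 counts in 4 of 17 wild-type cells and 45 counts in 34 of 120 cells of the library labelled knockout. These are 30.3 (8.26 to 77.6) and 124 (90.7 to 166) CPM, and projection neurons had 273 and 355. Igf2bp1, an RNA-binding protein of early progenitors that falls as the cortex matures, had 60.6 (26.2 to 119) and 149 (112 to 195) CPM, and 27.9 and 25.2 at P0. In projection neurons Igf2bp1 stood at 98.4 and 95.5 CPM. Of the glycolysis enzymes, Pkm had 425 (321 to 551) and 726 (641 to 820) CPM and Gapdh 470 (360 to 602) and 713 (628 to 805). Pkm was also higher in projection neurons of the library labelled knockout, with 331 and 453 CPM. Srebf2, a factor that drives the cholesterol synthesis genes described above, had 258 (179 to 360) and 141 (105 to 185) CPM. Its level in cycling cells was 151 and 159. These genes were chosen after their values were seen.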
